A study of Mus musculus with 6 samples.

Results

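The late-named mouse microRNAs (miRNAs) are the array's mouse probes whose miRNA number is 3000 or more, with miR-3960 left out. The rule used the probe name alone and no measured value. It found 201 of 1118 mouse miRNA probes, numbered from 3057 to 5710, of which 139 carried a number in the 3000s and 62 a number that starts with 5. The other mouse probes, 916 with lower numbers or let-7 names, served for comparison. The samples were exosomes, small vesicles that cells release, of purchased mouse endothelial cells, which form the inner lining of vessels. One group of cells received high phosphate (3.5 mM inorganic phosphate) and the other normal phosphate (0.9 mM), each for 48 h. All cells of both groups grew in F-12k medium with fetal bovine serum, antibiotics, endothelial growth supplement and heparin, and vesicles were collected from the supernatant by differential centrifugation. Each group had 3 arrays, labelled with the dye Hy3. The series concerns arterial calcification in kidney failure and asks which miRNAs the vesicles carry. Strain, sex and passage of the cells, any removal of serum vesicles, and the separate or shared origin of the 3 cultures behind a group are not stated in the sources used here. Each p-value below thus reflects only how far these samples scatter, and that scatter may be technical.

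A miRNA is cut from a hairpin precursor, and either strand of the hairpin, the 5p or the 3p arm, can be loaded into an Argonaute protein. The loaded strand pairs with messenger RNAs mainly through its seed, bases 2 to 8, and lowers their translation and stability. Registry numbers are given in order of discovery, so high numbers mark miRNAs found late, mostly by deep sequencing, many of which are less studied and less conserved than the early ones.

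The mature sequences below belong to the late-named miRNAs bright enough to be compared between phosphate levels, and each one shown has a different seed. They come from RefSeq (GRCm38.p6), run 5′ to 3′, and carry the seed in capitals. RefSeq matched 13 of these 15 members, miR-5625-3p and miR-3970 being named only, and 180 of all 201.
miR-5100: uCGAAUCCcagcggugccucu
miR-3962: aGGUAGUAguuuguacauuu
miR-3070-5p: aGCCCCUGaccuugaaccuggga
miR-5135: aGGUCUAGguggcaagggcguccu
miR-3058-3p: uUCCUGUCagccgugggugcc
miR-3084-5p: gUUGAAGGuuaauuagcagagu
miR-3086-3p: cCCAAUGAgccuacagucuaag
miR-3082-5p: gACAGAGUgugugugucugugu
miR-5624-3p: uUAAGGCAgaguuuacaauagg
miR-3103-3p: uAACCUCUgauccuucccacag
miR-3572-3p: uACACUUGuccuucuuuccccag
miR-3093-5p: cGCACCCCgcggagcucacacu
miR-3113-3p: uCCUGGCCcugguccugguc
No seed occurred more than once among these 13, and none was shared with a matched lower-numbered or other late-named probe. The 180 matched members held 176 distinct seeds. Of these, 4 seeds were held by more than 1 late-named probe, one of them by miR-3064-5p and miR-3085-3p and another by miR-3059-5p and miR-5616-5p. Another 4 members, miR-3473d, miR-3473a, miR-3091-3p and miR-3102-5p, had the seed of a lower-numbered probe, and none of the 4 was bright enough to be tested.

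The arrays carried markers of endothelium and of other tissues. Both endothelial markers were above the viral threshold described below on 6 of 6 arrays, with miR-126a-3p at 5474 ± 774 units (SD, n = 3) in high and 8210 ± 1597 units (SD, n = 3) in normal phosphate, and miR-126a-5p at 8607 ± 2622 units in high and 8987 ± 2094 units in normal phosphate. Markers of smooth muscle (miR-143-3p), red cells (miR-451a), liver (miR-122-5p) and striated muscle (miR-206-3p) were also above it on 6 of 6 arrays, while miR-145a-5p, miR-133a-3p and all 7 listed markers of leukocytes, epithelium and neurons were above it on 0 arrays. The other arm of the leukocyte marker miR-142a-3p, miR-142a-5p, was not in the list. It was above the threshold on at least 3 arrays, with a mean of 2979 units over all arrays. The part of other cells or serum in the late-named signals was not tested. In such bulk preparations, fewer cells or vesicles of a kind and less RNA in each cannot be told apart. The dye spots (Hy3) averaged 8.90 ± 0.15 on the log2 scale in high and 9.57 ± 0.18 in normal phosphate (SD, n = 3 each), and the 61 spike control probes 8.87 ± 0.22 in high and 9.47 ± 0.069 in normal phosphate. For both controls the high phosphate arrays lay below all normal phosphate arrays, so the direction of a late-named miRNA can depend on whether arrays are scaled to these controls.

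Late-named miRNAs were above background less often than lower-numbered ones on every array. A pair of thresholds was set on each array from foreground minus local background, in the scanner's intensity units. The stricter one was the 95th percentile of 57 probes for miRNAs of mouse herpesviruses, which the mouse genome does not encode. It lay at 2667, 2219 and 1627 units in high and 2028, 2107 and 3233 units in normal phosphate. By definition the brightest viral probes lie above it, so a small share of probes can exceed it without their own RNA. The looser one was the 99th percentile of the spots named Empty, between 2 and 4 units.

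Of the 201 late-named probes, 11, 15 and 16 exceeded the viral threshold in high and 13, 15 and 10 in normal phosphate. That is 6.63% ± 1.21 (SD, n = 6 arrays), against 11.8% ± 1.68 of the 916 lower-numbered probes. The late-named share was lower by 5.14 percentage points (SD 0.72), on 6 of 6 arrays (2-sided exact sign-flip permutation test over arrays, p = 0.03125, the smallest that 6 arrays allow). Probes are the same on every array, so this test covers the spread between arrays and not the choice of probes.

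The looser threshold gave the same order. It was exceeded by 176, 161 and 174 late-named probes in high and 161, 167 and 147 in normal phosphate, or 81.8% ± 5.26 (SD, n = 6), against 87.0% ± 3.46 of lower-numbered probes. The late-named share was lower by 5.29 points (SD 2.06) on 6 of 6 arrays (exact sign-flip test, p = 0.03125). The median late-named probe measured between 46.8 and 80.2 units on an array, against 92.4 to 124.6 units for the lower-numbered and 52.2 to 77.2 units for the viral probes. The range of the late-named median thus overlapped that of probes for RNAs that the mouse genome does not encode.

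**Figure D1:**
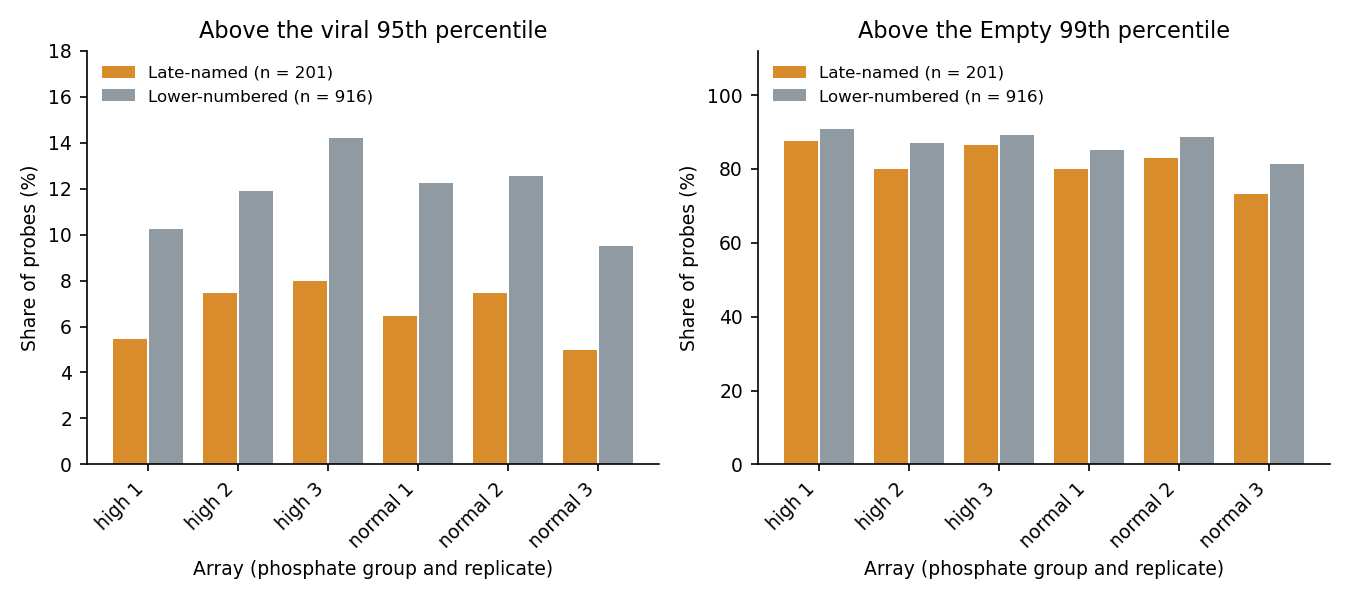
Percentage of late-named (orange, 201 probes) and lower-numbered (grey, 916 probes) mouse miRNA probes above the viral 95th percentile (left) and the Empty 99th percentile (right), one pair of bars for each array. The orange bar is the lower of each pair on all 6 arrays at both thresholds.

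The number of late-named miRNAs above a threshold did not differ detectably between phosphate levels. It was 14 ± 2.65 in high and 12.7 ± 2.52 in normal phosphate at the viral threshold (SD, n = 3 each; exact permutation test, p = 0.6), and 170.3 ± 8.14 and 158.3 ± 10.3 at the Empty threshold (p = 0.3). With 3 arrays against 3 the smallest possible p is 0.1. The lower-numbered probes numbered 111 ± 18.1 in high and 104.7 ± 15.4 in normal phosphate at the viral threshold (exact permutation test, p = 0.7), and 815.7 ± 18.6 and 779 ± 34 at the Empty threshold (p = 0.2).

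Few late-named miRNAs were bright. Exactly 10 exceeded the viral threshold on all 6 arrays: miR-5625-3p, miR-5100, miR-3970, miR-3962, miR-3070-5p, miR-5135, miR-3058-3p, miR-3084-5p, miR-3086-3p and miR-3082-5p. With 5 more that did so on 3 or 4 arrays (miR-5624-3p, miR-3103-3p, miR-3572-3p, miR-3093-5p and miR-3113-3p), 15 members entered the test, or 7.46% of the 201, against 114 (12.4%) of the lower-numbered probes. A further 152 members stayed out of the test but exceeded the Empty threshold on 3 or more arrays, and 34 did so on fewer than 3, including 19 on none. Just inside the limit were miR-3572-3p, miR-3093-5p and miR-3113-3p, with means over 6 arrays of 2611, 1930 and 1928 units, each above the viral threshold on 3 arrays. Just outside were miR-5125, above it on 2 arrays (mean 1509 units), and miR-3473b, above it on 1 array (1394 units). miR-5120 (1237 units) equalled the threshold on 1 array without exceeding it. Being above this threshold is weak evidence of the RNA, because the brightest viral probe reached between 8628.5 and 17426.5 units on an array. No late-named probe exceeded that viral maximum on all 6 arrays. Only miR-5625-3p, miR-5100, miR-3970 and miR-3962 exceeded it on any array.

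The bright members came from both number ranges and both arms. Tested members made up 11 of 139 probes in the 3000s (7.91%) and 4 of the 62 with higher numbers (6.45%). By arm, 4 of 75 5p probes (5.33%), 7 of 74 3p probes (9.46%) and 4 of 52 probes with no arm in the name (7.69%) were tested. These shares are descriptions over fixed probes.

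Both arms of a late-named miRNA were on the array for 68 pairs. In 10 of these 1 arm was bright enough to be tested, 4 times the 5p arm and 6 times the 3p arm, and in 0 both were. With so few tested probes in either arm, nothing is read from the 0. The signal on miR-3058-3p lay between 3627 and 5173 units in high and 4957 and 6540 units in normal phosphate, while miR-3058-5p lay between 6 and 7.75 units in high and 2 and 9 units in normal phosphate. For miR-3082 the 5p arm was the bright one, and miR-3082-3p, with a mean of -0.83 units, exceeded the Empty threshold on 0 arrays. The opposite arm with the most signal was miR-5625-5p, at 692, 260 and 621 units in high and 466, 387 and 149 units in normal phosphate, below the viral threshold on every array. Probes bind with different strength, so these signals place each arm against the thresholds and do not give the ratio of the arms.

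**Figure D2:**
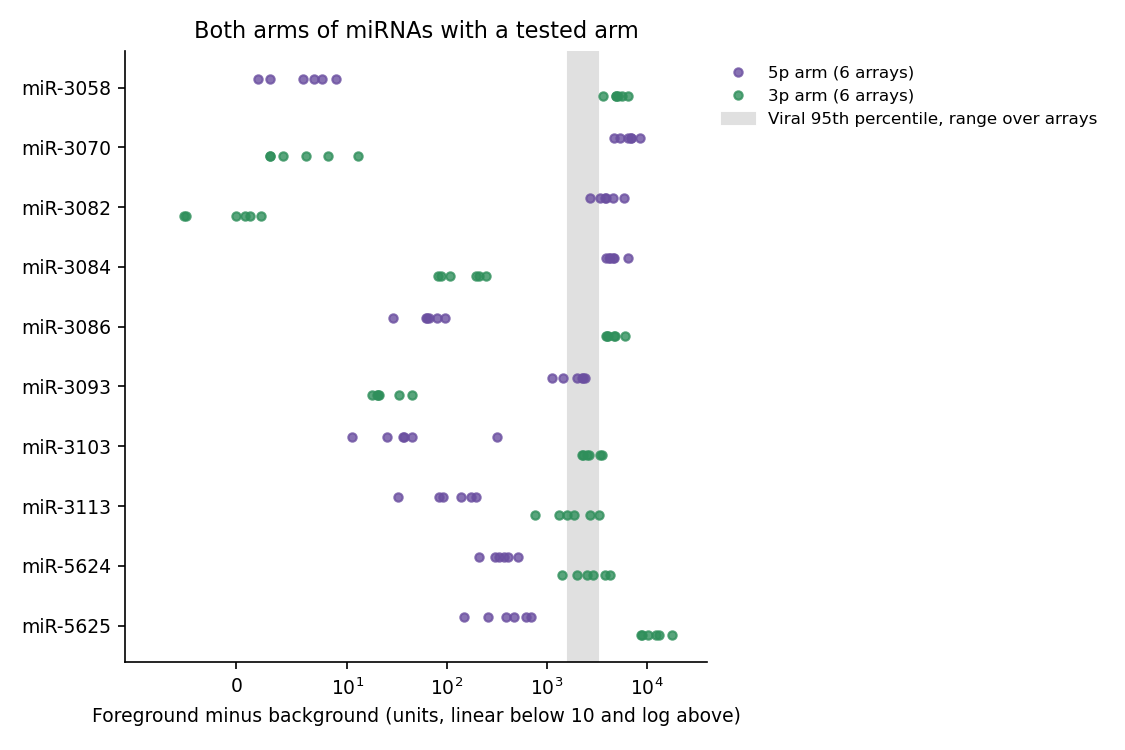
Foreground minus background in units (linear below 10, log above) of the 5p arm (purple) and the 3p arm (green) of the 10 late-named miRNAs with a tested arm, one point for each of 6 arrays. The grey band is the range of the viral threshold over arrays; in each miRNA the points of one arm lie left of the band and those of the other reach or pass it on at least 3 arrays.

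The bright members lay at scattered loci, most of them inside other genes. On GRCm38.p6 the 13 matched ones fell on 10 chromosomes, 10 within the span of a protein-coding gene (strand not considered), 1 within a lncRNA gene and 2 within no gene span. miR-3113-3p (chrX:151859606-151859625, plus strand) lay within Huwe1, a ubiquitin ligase gene, and miR-3058-3p (chr10:95559244-95559264, minus) within Nudt4, which encodes a hydrolase of diphosphoinositol polyphosphates. miR-3572-3p (chr7:3656010-3656032, plus) lay within Cnot3, a subunit of the CCR4-NOT deadenylase. miR-5100 (chr11:60728698-60728718, plus) lay within Mief2, a factor of mitochondrial division, and miR-5624-3p (chr13:93790816-93790837, plus) within the lysosomal sulfatase gene Arsb. miR-3084-5p has 2 loci on chromosome 19, one within Eif3a, a translation initiation factor gene. miR-3962 (chr1:194822035-194822054, plus) and miR-5135 (chr12:76533143-76533166, minus) lay in no gene span.

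Few late-named miRNAs lay near an older one. Of 16 members whose hairpin lies within 10 kb of a lower-numbered one, 2 were tested (12.5%), against 11 of 164 without such a neighbour (6.71%). The 2 were miR-3093-5p, 341 bases from the hairpin Mir9-1 on chromosome 3, and miR-3070-5p, which has 2 loci within Rtl1 in the imprinted Dlk1-Dio3 region of chromosome 12. The neighbour's product miR-9-5p was above the viral threshold on 0 arrays. The 7 members whose hairpin overlaps a lower-numbered one, from miR-3065, miR-3071, miR-3074 and miR-3544, had means of 3.29 to 107 units and none was tested. Of the 7 probes for miR-3070, miR-3071 and miR-3072 of the Dlk1-Dio3 region, only miR-3070-5p was tested. miR-3072-3p there had a mean of 1581 units, the highest of all untested members, and miR-3072-5p and miR-3070-2-3p had means of 491 and 267 units.

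Base composition differed between the sets. The median G plus C content was 54.5% in the 180 matched late-named and 47.8% in the 745 matched lower-numbered miRNAs, with a median length of 22 bases in both. Within the late-named set brightness did not rise or fall steadily with it. Across 180 miRNAs that share the same 6 arrays, Spearman's rho between G plus C content and mean log2 signal was 0.11 and Pearson's r 0.034. The median log2 signal was 7.40 below 40% G plus C, 6.57 from 40 to 50%, 7.16 from 50 to 60% and 7.90 at 60% and above. In the lower-numbered set these medians were 7.17, 7.98, 7.30 and 7.37. The share tested in bins of G plus C content differed between the sets. From 40 to 50% G plus C, 1 of 40 late-named miRNAs (2.50%) was tested, against 50 of 239 lower-numbered ones (20.9%), whereas at 60% and above it was 6 of 60 (10%) against 4 of 120 (3.33%). These are counts over fixed probes, given without a test, and the late-named share was not the lower one in every bin.

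No late-named miRNA differed between high and normal phosphate after adjustment. The limma fit covered all 129 mouse probes that passed the filter, with Benjamini-Hochberg adjustment over all of them, on quantile-normalized log2 intensities. It called 0 of 15 late-named members at an adjusted p under 0.05, and 0% of the 129 tested probes. At an unadjusted p under 0.05 it called 0 of 15, against 6.98% of the 129. The mean was higher in high phosphate for 10 of the 15 members and lower for 5, where 48.1% of all tested probes were higher. The groups overlapped after normalization in all 15 members, while 10.1% of the 129 probes had groups that did not overlap. The median difference of the 15 was 0.090 on the log2 scale, against -0.016 over all 129. That split depended on the scaling: it was 7 higher and 8 lower with median scaling, with no normalization and with the authors' values, but 13 and 2 when scaled to the Hy3 spots and 12 and 3 when scaled to the spike controls. Those 2 scalings brought the median of all 129 probes to 0.46 and 0.38, and the other 3 to between -0.22 and -0.18. Scaled to the Hy3 spots, 6 of 15 members and 38 of 129 probes had an unadjusted p under 0.05, and the smallest adjusted p of a member was 0.083 by limma.

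The smallest p among the 15 belonged to miR-5625-3p, the brightest late-named probe. It measured 17950, 12372 and 8755 units in high and 10204, 13416 and 8961 units in normal phosphate. The lowest array was in high phosphate, so the groups overlapped before scaling. Its log2 difference, high minus normal, was 0.50 ± 0.23 (SE; 95% interval -0.038 to 1.03; unadjusted p = 0.0642, adjusted p = 0.709 by limma), a 1.41-fold difference whose interval held no change.

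Of the other members higher on average in high phosphate, 4 stood next by p. miR-3084-5p measured 6530, 4198 and 4294 units in high and 4755, 3882 and 4635 units in normal phosphate, and miR-3113-3p 1337, 3302 and 1854 units in high and 761, 2721 and 1595 units in normal phosphate. For miR-3084-5p, high phosphate replicate 1 was the highest array and the other arrays of both groups lay between 3882 and 4755 units. miR-3113-3p spread more within each group than between them. Their log2 differences were 0.30 ± 0.22 (SE, adjusted p = 0.853) and 0.48 ± 0.46 (adjusted p = 0.873). miR-3572-3p measured 2011, 3321 and 2672 units in high and 1376, 3674 and 2614 units in normal phosphate. miR-5624-3p measured 4252, 1406 and 3850 units in high and 2894, 2516 and 1993 units in normal phosphate. Both had overlapping groups, and for miR-5624-3p the highest and the lowest array were both in high phosphate. The log2 differences were 0.24 ± 0.34 and 0.29 ± 0.44 (SE, adjusted p = 0.890 for both).

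Among the 5 members lower on average in high phosphate, miR-3970 and miR-3962 had the smallest p. miR-3970 measured 10548, 5009 and 5426 units in high and 14325, 14363 and 7236 units in normal phosphate. miR-3962 measured 5253, 5367 and 6983 units in high and 13056, 8080 and 8182 units in normal phosphate. Its sequence shares 17 bases with let-7g-5p, a brighter probe described at the end. Before scaling miR-3962 was the only one of the 15 whose groups did not overlap (6.67%, against 14% of the 129), and after quantile normalization they did. The log2 differences were -0.55 ± 0.35 for miR-3970 and -0.44 ± 0.31 for miR-3962 (SE, adjusted p = 0.853 for both). Scaled to the Hy3 spots they were -0.11 and -0.035, scaled to the spike controls -0.19 and -0.11, and with no normalization -0.79 and -0.71.

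The other 3 were miR-5100, miR-3070-5p and miR-3058-3p. miR-5100 measured 14337, 8041 and 5936 units in high and 13527, 9798 and 18308 units in normal phosphate. miR-3070-5p measured 5433, 6950 and 4708 units in high and 6980, 6425 and 8633 units in normal phosphate. For both, 1 high phosphate array lay among the normal phosphate arrays. miR-3058-3p measured 4872, 5173 and 3627 units in high and 4957, 5676 and 6540 units in normal phosphate, with 1 high phosphate array above the lowest normal phosphate array. The log2 differences were -0.36 ± 0.31, -0.21 ± 0.22 and -0.19 ± 0.20 (SE, adjusted p = 0.873 for each). Scaled to the Hy3 spots, all 3 were positive, at 0.066, 0.30 and 0.34.

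The remaining 5 tested members, miR-3086-3p, miR-3093-5p, miR-3103-3p, miR-5135 and miR-3082-5p, had log2 differences of 0.13 or less in size except miR-3093-5p at 0.18 ± 0.30 (SE), with adjusted p from 0.890 to 0.999. For miR-5135, 10220 units in high phosphate replicate 1 stood against 4413 and 4240 units in the other high phosphate arrays and 7020, 4388 and 8345 units in normal phosphate. Before scaling miR-3103-3p averaged 2730 ± 593 units in high and 2845 ± 659 units in normal phosphate, and miR-3082-5p 3727 ± 944 units in high and 4401 ± 1383 units in normal phosphate (SD, n = 3 each), while their normalized differences were 0.090 and 0.00044. Their 4 spots also varied more within an array than those of most members, with median coefficients of variation of 33.2% and 38.4% against a median of 10.8% over the 15. None of the 15 had a saturated spot.

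**Figure D3:**
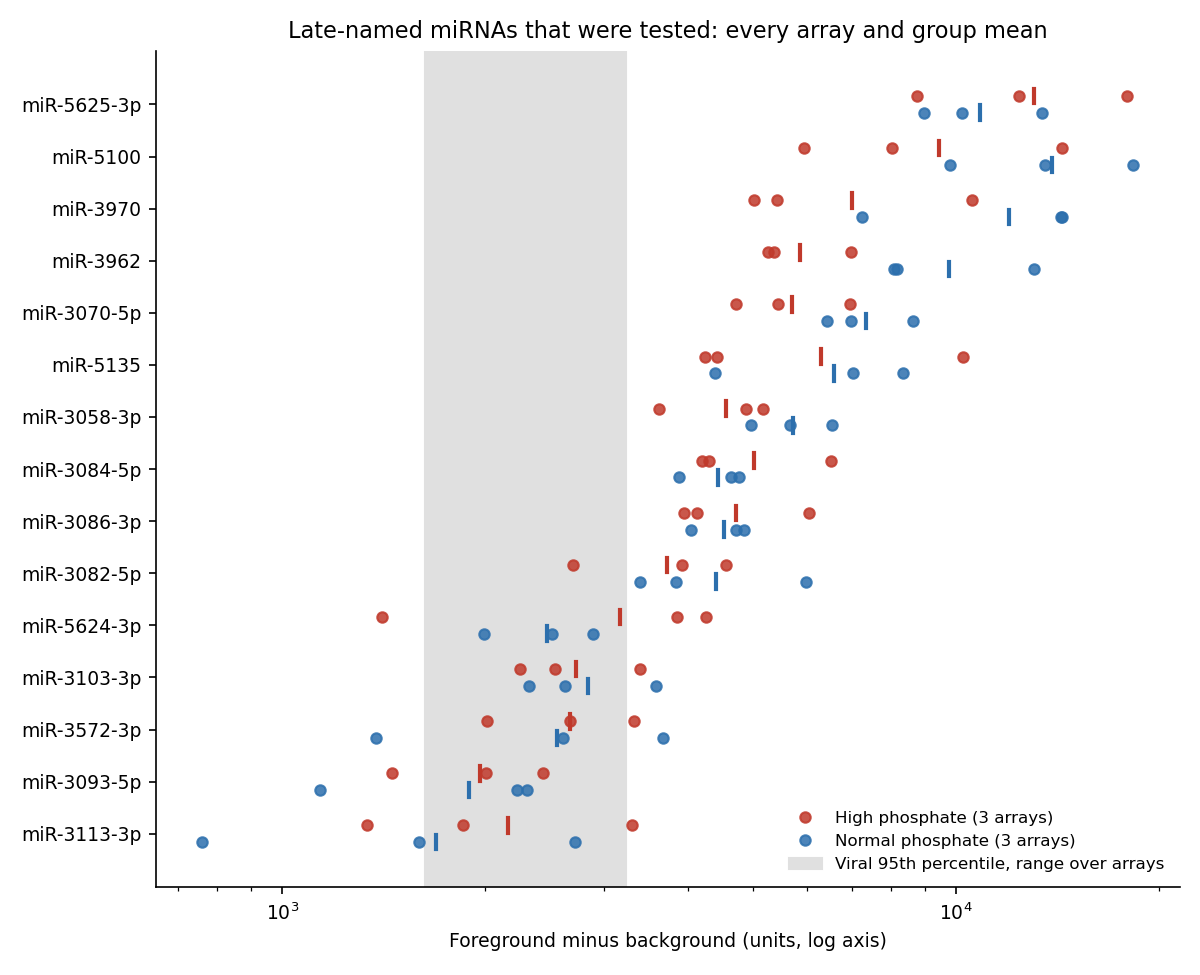
Foreground minus background in units (log axis) of the 15 tested late-named miRNAs, with 3 high phosphate arrays (red) above 3 normal phosphate arrays (blue), vertical ticks at the group means and a grey band for the range of the viral threshold. Red and blue points overlap in every row except miR-3962, where the high phosphate arrays reach 6983 units and the normal phosphate arrays start at 8080 units.

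**Figure D4:**
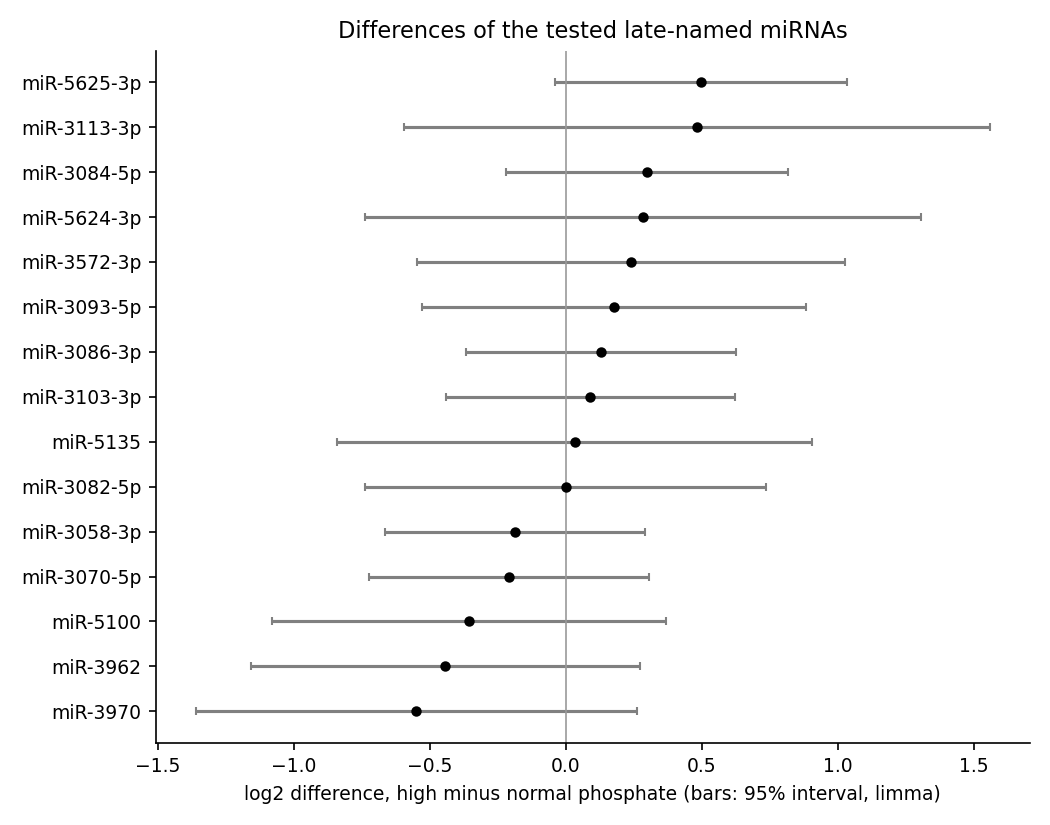
Log2 difference, high minus normal phosphate, of the 15 tested late-named miRNAs from limma on quantile-normalized intensities, with 95% intervals as bars (3 arrays per group). Points run from 0.50 for miR-5625-3p to -0.55 for miR-3970, and every interval crosses 0.

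The precision of these arrays bounds what could be seen. For the 15 tested members the 95% interval reached a median of 0.71 above and below the log2 difference, or 1.64-fold. The interval was not adjusted for the number of probes tested. For a typical member, a measured difference smaller than 0.71 falls short of an unadjusted p under 0.05. Calls used the adjusted p, which needs a difference at least that large, and the size it needs was not computed. A p above the threshold does not show equal levels.

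The fit was also run without the filter, over all 1118 mouse probes. It called 0 of 201 late-named members after adjustment, and 0% of the 1118, and at an unadjusted p under 0.05 it called 9 of 201 (4.48%), against 5.64% of all mouse probes. Among the 9 was miR-5625-3p (unadjusted p = 0.042 by limma). The mean was higher in high phosphate for 109 members (54.2%) and lower for 92, with a median log2 difference of 0.011. Of all 1118 mouse probes 48.7% were higher, with a median of -0.0021. The 5 untested members with the smallest p have these RefSeq sequences, seed in capitals, shown because 4 of them were called under another scaling.
miR-3062-3p: cGGGGACAcacuuucuccu
miR-5114: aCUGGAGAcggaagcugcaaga
miR-3964: aUAAGGUAgaaagcacuaaa
miR-3097-5p: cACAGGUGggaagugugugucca
miR-5120: uUUGGGGCuguggugccaccagc
miR-3062-3p measured 556, 566 and 492 units in high and 345, 389 and 323 units in normal phosphate, and every high phosphate array lay above every normal phosphate array. Its log2 difference was 0.52 ± 0.085 (SE, unadjusted p = 0.00156, adjusted p = 0.581 by limma). It lay below the viral threshold on all arrays, a range in which probes without a mouse target also gave signal.

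The other 4 showed both directions. miR-3097-5p measured 754, 577 and 514 units in high and 438, 345 and 278 units in normal phosphate (log2 difference 0.67 ± 0.23, SE), and miR-5114 126, 82.5 and 115 units in high and 35.5, 70.8 and 46.5 units in normal phosphate (0.45 ± 0.11). miR-3964 measured 273, 214 and 158 units in high and 334, 359 and 458 units in normal phosphate (-0.71 ± 0.20). Groups did not overlap in these 3, as in miR-3062-3p. These members were picked by a small p, which favours groups that do not overlap, so nothing is read from it. Of the 129 tested probes, 14% had groups that did not overlap before scaling and 10.1% after normalization. Those probes passed the filter and these members did not, and the share over all 1118 mouse probes was not counted. miR-5120, within the span of Pax5, a B-cell transcription factor gene, measured 1578, 1284 and 1627 units in high and 809, 1352 and 771 units in normal phosphate, with overlap (0.63 ± 0.22). All 4 had an adjusted p of 0.776 by limma. Without the filter, scaling to the Hy3 spots called 28 of 201 members (13.9%), against 12.3% of all mouse probes, and scaling to the spike controls called 12 (5.97%), against 4.38%. All those calls were higher in high phosphate, under scalings that brought the median of all mouse probes to 0.46 and 0.38. With no normalization the unfiltered fit called 1 late-named member (0.498%), higher in high phosphate. It called 8 of all 1118 mouse probes (0.716%), 5 of them higher, at a median of -0.22.

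In the authors' deposited table, 169 late-named miRNAs had a p-value and 2 of them (1.18%) were under 0.05, against 3.79% of the 1029 probes with one. The authors' deposited table gave miR-3062-3p a ratio of high over normal phosphate of 1.497 (p = 0.00714) and miR-3964 a ratio of 0.567 (p = 0.0353), with a false discovery rate of 0.794 for both. Neither was among the 15 tested members. For the 15, the ratios in the authors' deposited table ran from 0.565 for miR-3962 to 1.29 for miR-3113-3p, and their smallest p-value was 0.103, that of miR-3962.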

How the data were processed

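Per the file headers, the authors deposited 2 intensities for each spot of the 1-colour arrays, the foreground and the foreground less its local background. For named probes the authors also deposited normalized intensities, the ratio (fold change) of test to control, its p-value and its false discovery rate. Scanner, image software and the authors' test are not stated in the sources used here. Another 12 per-sample columns of the authors' table repeated unnormalized values and were not used, nor were copies of the normalized values.

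From the spot intensities, normexp correction (limma 3.58.1 in R 4.3.3, offset 50) was fitted on all spots, the mean was taken over each probe's spots, and quantile normalization across arrays used mouse plus viral probes, followed by log2. Mouse probes above the viral 95th percentile on at least 3 of 6 arrays (129) were fitted with lmFit and eBayes, 2-sided, high minus normal phosphate. The fit was tested on simulated data. Shares were compared with exact sign-flip tests over arrays, single numbers with exact permutation tests (scipy 1.17.1). No batch is given, so none was fitted. Precision is limited by the 3 arrays per group.

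The members and lists were chosen with earlier results of these data known. Members were named by a rule: all tested ones, the value of every array for up to 5 in each direction with the smallest p, 5 untested ones by brightness and 5 by p, those under 0.05 in the authors' table, the other arm of each tested member and tested members with overlapping hairpins. Alternatives covered background correction, scaling, the deposited values, filters, thresholds, spot averaging, the variance model, a replicate block and leaving out each array.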

Additional observations from a re-analysis of the deposited data

How the results depend on the processing

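None of the 12 single changes of processing, and none of the 6 fits that left out 1 array, called a late-named member, while scaling to the Hy3 spots called 7 of all 129 probes. The median difference of the tested members, 0.090, became -0.030 with median scaling, -0.064 with no normalization, 0.61 scaled to the Hy3 spots, 0.54 scaled to the spike controls, -0.12 with the authors' normalized intensities and -0.093 for the 10 members above the viral threshold on all 6 arrays. The differences of miR-3103-3p, miR-3082-5p and miR-5135 turned to -0.030, -0.20 and -0.11 with median scaling, -0.064, -0.23 and -0.15 with no normalization and -0.12, -0.27 and -0.16 with the authors' values, and the median of a probe's spots gave -0.043 for miR-3103-3p and -0.057 for miR-3082-5p. Scaled to the Hy3 spots, miR-3058-3p, miR-5100 and miR-3070-5p turned to 0.34, 0.066 and 0.30, and scaled to the spike controls miR-3058-3p and miR-3070-5p to 0.26 and 0.22. For these turns the cause was not tested. Without the filter, an alternative added after seeing the data, the Hy3 scaling called miR-3062-3p (1.15), miR-5114 (1.08), miR-3097-5p (1.32) and miR-5120 (1.27), and the spike scaling the last 2 of these (1.24 and 1.20). The number of members above the viral threshold, high minus normal, was 1.33 and turned to -1.0 at the viral 90th percentile and -1.33 at the viral maximum, and it was 8.0 at a fixed 50 units. The number above the Empty threshold, high minus normal, was 12.0. At the Empty maximum it was 17.3 (exact permutation test, p = 0.1, the smallest that 3 arrays against 3 allow). The share difference of -5.14 points was -3.10 at the viral maximum and -9.44 at 50 units, where that of -5.29 at the Empty threshold also came to -9.44 (exact sign-flip permutation p = 0.03125 throughout). Leaving out 1 array gave ranges of -5.28 to -4.92 points for the share at the viral threshold and -5.80 to -4.71 at the Empty threshold, with p at 0.0625, the smallest that 5 arrays allow; 0 to 2.83 and 6.33 to 16.7 for the numbers above the thresholds; 0.0069 to 0.14 for the median difference; -0.33 to 0.24 for miR-5135, -0.018 to 0.24 for miR-3086-3p, -0.061 to 0.21 for miR-3103-3p, -0.19 to 0.26 for miR-3082-5p, -0.0067 to 0.80 for miR-5624-3p, -0.099 to 0.36 for miR-3093-5p and -0.083 to 0.50 for miR-3572-3p. The other tested members kept their direction in these 6 fits but not their size: miR-5625-3p 0.38 to 0.64, miR-3084-5p 0.16 to 0.41, miR-3113-3p 0.064 to 0.86, miR-3970 -0.86 to -0.35, miR-3962 -0.72 to -0.25, miR-5100 -0.63 to -0.17, miR-3070-5p -0.34 to -0.092 and miR-3058-3p -0.30 to -0.072. Arrays of the same replicate number correlated at 0.22, 0.027 and -0.18 in their deviations from the group means. Those of different numbers ran from -0.36 to 0.45. These few values showed no pairing by number but cannot settle whether the arrays were paired. A replicate block called 0 of 15 members and 8 of 129 probes at an unadjusted p under 0.05, with a median difference of 0.090.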

Other observations

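Some late-named miRNAs share long stretches with older ones, a look chosen after their values were seen. The longest run of letters that a matched late-named miRNA shared with a lower-numbered mature sequence had a median of 9 bases, and it reached 12 in 4 of 180. The longest joined miR-3962, one of the bright members, to let-7g-5p, a let-7 family member known to restrain growth genes, over 17 bases. The run is in capitals in both RefSeq sequences.
miR-3962: AGGUAGUAGUUUGUACAuuu
let-7g-5p: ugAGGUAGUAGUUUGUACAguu
The run starts at base 1 of miR-3962 and base 3 of let-7g-5p, so their seeds, bases 2 to 8 of each, differ. The let-7g-5p probe measured 20937, 29696 and 21377 units in high and 25992, 30108 and 32967 units in normal phosphate. miR-3962 also shared 14 bases with let-7i-5p, whose probe had a mean of 19031 units over all arrays. It shared 9 bases with let-7a-5p, let-7b-5p, let-7c-5p, let-7d-5p and let-7f-5p. Whether let-7 RNA adds to the signal on the miR-3962 probe was not tested. The other late-named miRNAs with a run of at least 12 bases were miR-3964 with miR-142a-5p (13 bases), miR-3082-5p with miR-574-5p and miR-3103-5p with miR-1943-5p (12 bases each).

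The letters of miR-3473b, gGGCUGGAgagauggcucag with the seed in capitals, read as DNA on either strand, occurred in 32 of 32851 RefSeq promoter windows (0.0974%), and those of the other 21 named late-named miRNAs in 0. This look was also chosen after values were seen. The miR-3473b probe measured 671, 1327 and 857 units in high and 2348, 1958 and 1201 units in normal phosphate, with overlapping groups and a log2 difference of -0.86 ± 0.34 (SE, adjusted p = 0.776 by limma without the filter).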
